A study of Mus musculus with 47 samples.

Results

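The lysosome is the acidic organelle in which cells break down proteins, sugars and lipids. Its lumen holds acid hydrolases, its membrane carries transporters, ion channels and heavily glycosylated structural proteins, and a proton pump, the V-ATPase, keeps it acidic. The transcription factors TFEB and TFE3 bind E-box sequences in many lysosomal promoters and are held in the cytoplasm by mTORC1 when nutrients are plentiful. Senescent cells are known for an enlarged lysosomal compartment, and the senescence-associated β-galactosidase stain reads the enzyme encoded by Glb1. The genes described here are 32 named lysosome genes, each taken through the probe sets whose platform annotation gives exactly that symbol and represented by the brightest of them over 47 arrays. Cd63 had no such probe set, which left 31 genes of the 18194 measured. By role they are 8 glycosidases and sulfatases, 9 peptidases, 4 proteins of lipid breakdown or lipid binding in the lumen, 4 membrane proteins, 4 subunits of the proton pump and 2 regulators.

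RNA was measured in B cell lymphoma cells taken from lymph nodes of Eµ-myc mice, in which an immunoglobulin heavy chain enhancer drives Myc in the B lineage. All cultures carried a retroviral Bcl2, which blocks apoptosis, were selected with puromycin, and grew on a feeder layer of NIH 3T3 mouse fibroblasts irradiated with 20 Gy. The groups were Suv39h1 wild type (WT) lymphomas, native (untreated) and after ADR (14 arrays each), Suv39h1- lymphomas, native and after ADR (5 arrays each), and Suv39h1- lymphomas with an added Suv39h1ER, native, after ADR, and after ADR with 4OHT (3 arrays each). ADR is Adriamycin (doxorubicin), a DNA-damaging drug, given at 0.05 µg/ml for 5 days. Suv39h1 places the H3K9me3 mark of silenced chromatin, and the estrogen receptor fusion Suv39h1ER depends on the ligand 4-hydroxytamoxifen (4OHT). The labels call the WT ADR and the Suv39h1ER ADR 4OHT arrays senescent and all others non-senescent. No group had 4OHT without ADR, and Suv39h1 itself was not analysed here, which leaves the genotypes as labelled.

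Values are log2 levels, so a difference of 1 is a 2-fold difference in signal. The lymphoma number 4936 appears in both the Suv39h1- and the Suv39h1ER groups, and 5043 in both the WT and the Suv39h1ER groups. In the untreated arrays, the pairs among WT lymphomas 2949, 5043, 5766 and 6054 had correlations of 0.186 to 0.72 over the 500 most variable genes, against -0.619 to 0.404 for the other WT pairs, and Suv39h1- lymphomas 7890 and 9250 at 0.055 against -0.525 to -0.031. Both sets are called alike below, and an alternative fit counts each set once. The ranges of the WT pairs overlap, 0.055 is a low correlation, and no cut-off defined the sets. If a lymphoma entered more than once, SEs and p-values here are too small. Array medians lay between 4.32 and 4.43, except the ADR array of Suv39h1- lymphoma 1032 at 4.07. The B cell markers (9 of 10 measured) had a mean level of 8.53 in native WT, 7.94 in WT ADR and 7.74 to 8.12 in the other groups. The lowest array mean was 6.60, in Suv39h1- ADR. Among these markers Pax5 had means of 4.92 in WT ADR and 4.93 in Suv39h1- ADR arrays. Markers of other cells moved with the treatment. In WT arrays 18 of 20 fibroblast markers and 8 of 13 macrophage markers rose under ADR, where 16.1% of all genes rose. Of the B cell markers 4 of 9 fell, where 14.1% of all genes fell. The mean fibroblast level of an array ran from 4.49 to 5.70 in native WT, 5.26 to 9.69 in WT ADR, 4.61 to 6.34 in native Suv39h1- and 4.76 to 6.92 in Suv39h1- ADR arrays. It ran from 4.28 to 4.6, 5.13 to 6.52 and 4.70 to 5.46 in Suv39h1ER native, ADR and ADR 4OHT arrays. The mean macrophage level ran from 4.47 to 7.18 in native WT, 5.32 to 8.28 in WT ADR, 3.89 to 7.44 in native Suv39h1- and 3.93 to 7.48 in Suv39h1- ADR arrays. It ran from 4.19 to 4.70, 5.26 to 6.64 and 5.07 to 5.53 in the 3 Suv39h1ER groups in the same order. Among the defining macrophage markers Csf1r rose from a WT mean of 7.87 to 9.72, while Cd163 stayed near the bottom of the scale at 2.53 and 2.58. T cell markers had means between 4.36 and 4.59 in all 7 groups. Fibroblasts and macrophages have lysosomes of their own, and in such bulk samples more cells of another type and more lysosomal RNA per lymphoma cell cannot be told apart.

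The promoters of these genes show how many carry the E-box letters that TFEB and TFE3 are known to bind. The RefSeq promoter table (GRCm38.p6, 250 bases before to 50 after each annotated start) held 26 of the 32 genes, with 31 promoters. The 6-base E-box CACGTG, which reads the same on both strands, was found in 10 of these 26 genes (38.5%) and in 10 of the 31 promoters (32.3%), where 8.09% of all 27025 genes and 7.15% of all 32851 promoters held it. The 8-base palindrome TCACGTGA, which contains the E-box, was found in 6 of the 26 genes (23.1%) against 1.12% of all genes, and in 19.4% of the 31 promoters against 0.974% of all promoters. That palindrome with a G added before it and a C after it was in none of the 26 and in 0.37% of all genes. The stretches below were chosen among the genes that held a match, and belong to Glb1 and to genes whose levels the results turn on. All are 5′ to 3′ in the direction of transcription and lie before the start, with the E-box or its 8-base palindrome in capitals. They lie at chr9:114401008-114401057 (plus strand) for Glb1, chr8:13159078-13159160 (plus) for Lamp1, chr8:3500426-3500502 (plus) for Mcoln1, chr7:142387897-142387948 (minus) for Ctsd, chr13:64370729-64370770 (minus) for Ctsl and chrX:134601171-134601255 (minus) for Gla.
Glb1: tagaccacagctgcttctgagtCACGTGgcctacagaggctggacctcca
Lamp1: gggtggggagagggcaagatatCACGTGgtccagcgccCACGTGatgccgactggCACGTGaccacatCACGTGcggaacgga
Mcoln1: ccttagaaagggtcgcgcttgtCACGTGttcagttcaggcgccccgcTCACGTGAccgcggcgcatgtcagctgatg
Ctsd: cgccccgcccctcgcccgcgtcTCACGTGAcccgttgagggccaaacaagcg
Ctsl: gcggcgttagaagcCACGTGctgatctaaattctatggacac
Gla: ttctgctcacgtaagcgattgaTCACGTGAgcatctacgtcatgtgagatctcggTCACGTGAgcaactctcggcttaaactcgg
Lamp1 had 4 matches in its window, Mcoln1 and Gla 2 each, and Glb1 1, whose first base lay at -48 from the start. Ctsd had a further CACGTG match at -245, outside the stretch shown. Gaa, Ctsa, Atp6v1a and Atp6v0d1 were the other genes with a match. A match describes the letters in this window and is no measured binding site, and it does not tell which factor would bind there.

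**Figure D1:**
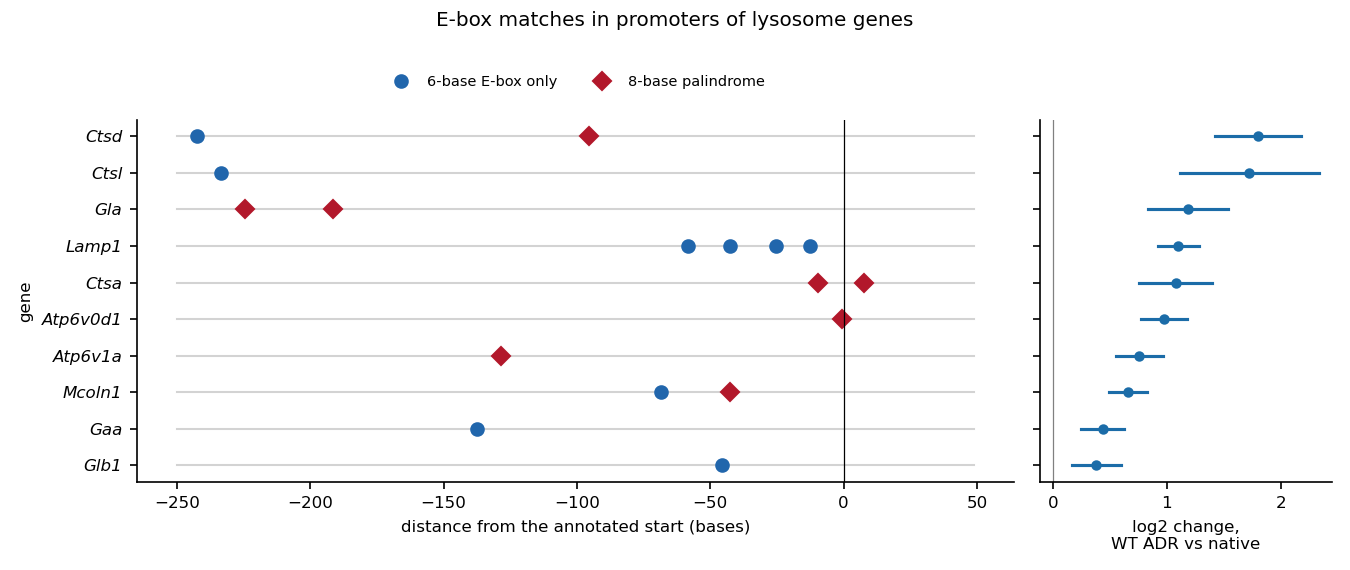
Positions of E-box matches in the promoters of the 10 lysosome genes that hold one, as distance in bases from the annotated start (0), with circles for the 6-base E-box and diamonds for the 8-base palindrome. The right panel gives each gene's log2 change in WT ADR against native arrays with its 95% interval, from 0.38 for Glb1 to 1.80 for Ctsd.

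The main comparison asked how the genes respond to ADR in WT lymphomas, labelled senescent after ADR. The lysosome genes rose together: 27 of 31 were higher after ADR and 0 were lower in limma at an adjusted p under 0.05, where 30.2% of all genes passed, 16.1% higher and 14.1% lower. With the change of fibroblast markers as a covariate the count was 10, where 5.84% of all genes were higher. The median log2 change of the 31 genes was 0.70, against -0.00 over all 18194 genes, and 29 of 31 were above 0. The peptidases had the highest median of the roles at 1.08, followed by membrane proteins (0.88), lipid proteins (0.86), the proton pump (0.85), glycosidases and sulfatases (0.45) and the regulators (0.29). A total of 12 genes were higher in each of the 14 cultures, where 2.92% of all genes were. They were Hexa, Ctsa, Ctsb, Ctsd, Ctsl, Ctss, Tpp1, Lamp1, Mcoln1, Atp6v0d1, Atp6ap1 and Tfe3. The native and ADR ranges of levels overlapped for all 31 genes, as they did for most genes: 0.176% of all genes were higher without overlap.

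**Figure D2:**
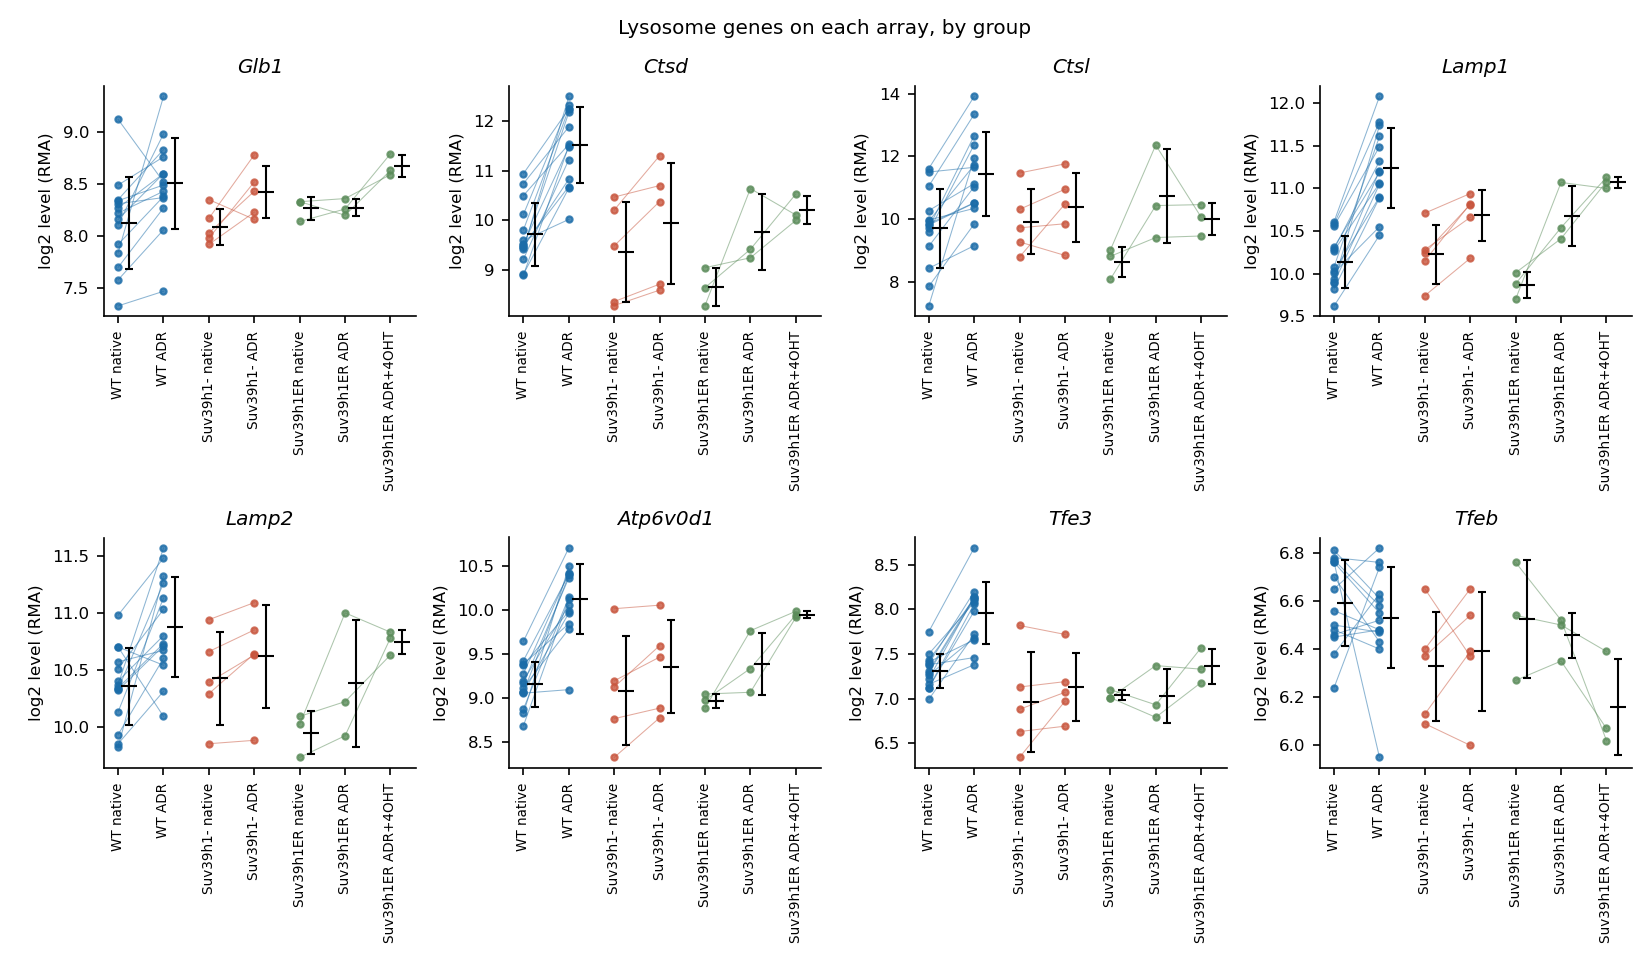
Log2 level of 8 lysosome genes on each array (dots) in the 7 groups, with lines joining arrays of 1 culture and black bars for the group mean and SD. Lamp1 rose in all 14 WT cultures, from a mean of 10.14 to 11.24, whereas Tfeb did not pass the test, with WT means of 6.59 and 6.53.

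Among the glycosidases, Glb1, the β-galactosidase of the senescence stain, rose by a modest amount. Its level ran from 7.33 to 9.12 in native WT arrays (median 8.19) and from 7.47 to 9.34 in WT ADR arrays (median 8.51). It was higher in 13 of 14 cultures, 9584 being the exception at -0.60, and the log2 change was 0.38 (SE 0.103, adjusted p = 0.0059 in limma). Gla, the α-galactosidase A that trims globotriaosylceramide, had the largest change of this role. Its levels were 6.85 to 8.34 (median 7.68) before and 7.69 to 9.90 (median 8.91) after ADR, a change of 1.19 (SE 0.170, adjusted p = 7.72e-06, higher in 12 of 14). Hexa, a subunit of the β-hexosaminidase that degrades GM2 ganglioside, rose by 0.92 (SE 0.211, adjusted p = 0.00138, 14 of 14). Gusb, the β-glucuronidase, rose by 0.56 (SE 0.147, adjusted p = 0.0046, 11 of 14). Man2b1, the lysosomal α-mannosidase, rose by 0.46 (SE 0.120, adjusted p = 0.00414, 11 of 14), and Gaa, the acid α-glucosidase that clears glycogen, by 0.44 (SE 0.090, adjusted p = 0.00049, 12 of 14). The other two genes of this role did not pass the test. Galns, the sulfatase of keratan sulfate, had a change of -0.12 (SE 0.072, adjusted p = 0.241, higher in 6 of 14). Neu1, the lysosomal sialidase, had a change of 0.00 (SE 0.092, adjusted p = 0.984), with levels of 7.84 to 8.88 (median 8.21) before and 7.82 to 8.79 (median 8.25) after ADR. The 95% interval for Neu1 was -0.18 to 0.19, which leaves room for small changes of either sign. Gusb was the only gene of this role that passed with the change of fibroblast markers as a covariate. Man2b1 kept its estimate there (0.50) with a wider SE of 0.25.

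The peptidases held the largest changes of all 31 genes, and 8 of 9 rose. Of these, Ctsk, Ctsl and Ctss did not pass with the change of fibroblast markers as a covariate. Ctsd, the aspartic protease cathepsin D, went from 8.90 to 10.94 (median 9.51) in native WT arrays to 10.02 to 12.49 (median 11.51) in WT ADR arrays, a change of 1.80 (SE 0.183, adjusted p = 1.38e-07, 14 of 14). Ctsl, the cysteine protease cathepsin L, rose by 1.72 (SE 0.294, adjusted p = 6.38e-05, 14 of 14) from levels of 7.23 to 11.61 (median 9.83) to 9.15 to 13.91 (median 11.39). Its rise differed widely between cultures, from 0.15 in 9584 to 4.71 in 2581. Ctsb, the cathepsin B that cleaves many lumenal substrates, rose by 1.33 (SE 0.163, adjusted p = 1.25e-06, 14 of 14). Tpp1, the tripeptidyl peptidase 1, had the smallest p of this role and rose by 1.15 (SE 0.104, adjusted p = 3.53e-08, 14 of 14), from 9.15 to 9.83 (median 9.39) before to 9.58 to 11.10 (median 10.56) after ADR. Ctsa, which protects β-galactosidase and the sialidase in a complex, rose by 1.08 (SE 0.154, adjusted p = 7.72e-06, 14 of 14). Ctsk, the collagen-degrading cathepsin known from osteoclasts and also made by fibroblasts, was dim: its levels were 3.76 to 7.69 (median 4.66) before and 4.18 to 7.99 (median 5.79) after ADR, a change of 1.04 (SE 0.279, adjusted p = 0.00522, 13 of 14). Ctss, the cathepsin S that trims the invariant chain in antigen-presenting cells, rose by 0.69 (SE 0.125, adjusted p = 0.00013, 14 of 14), and Ctsz, a carboxypeptidase, by 0.50 (SE 0.079, adjusted p = 2.73e-05, 13 of 14). Ctsh, an aminopeptidase, did not pass the test, with a change of 0.36 (SE 0.159, adjusted p = 0.095, 10 of 14) and levels of 9.08 to 10.54 (median 9.71) before and 8.84 to 11.29 (median 10.32) after ADR.

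All 4 genes of lipid breakdown and lipid binding rose, and none passed with the change of fibroblast markers as a covariate. Lipa, the acid lipase that frees cholesterol from its esters, rose by 1.01 (SE 0.118, adjusted p = 6.01e-07, 13 of 14) from 7.71 to 9.09 (median 8.30) to 8.52 to 10.07 (median 9.21). Psap, the precursor of the saposins that present sphingolipids to their hydrolases, rose by 1.01 (SE 0.135, adjusted p = 3.18e-06, 13 of 14). Asah1, the acid ceramidase, rose by 0.70 (SE 0.112, adjusted p = 2.99e-05, 13 of 14). Npc2, which passes cholesterol to NPC1, rose by 0.62 (SE 0.117, adjusted p = 0.000215, 12 of 14), from 11.07 to 12.06 (median 11.55) to 11.19 to 12.83 (median 12.05).

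The 4 measured membrane proteins rose as well, though Npc1 and Lamp2 did not pass with the change of fibroblast markers as a covariate. Lamp1, an abundant glycoprotein of the lysosomal membrane, had the smallest p of all 31 genes. Its levels were 9.62 to 10.61 (median 10.06) before and 10.45 to 12.08 (median 11.20) after ADR, a change of 1.10 (SE 0.087, adjusted p = 1.18e-08, 14 of 14). Npc1, the membrane protein that exports cholesterol, rose by the same amount, 1.10, with a wider SE (0.161, adjusted p = 9.51e-06, 13 of 14). Mcoln1, the calcium channel TRPML1, rose by 0.66 (SE 0.080, adjusted p = 1.08e-06, 14 of 14). Lamp2, the relative of Lamp1 needed for autophagosome clearance, had the smallest change of this role, 0.52 (SE 0.121, adjusted p = 0.00155, 12 of 14), from 9.82 to 10.98 (median 10.35) to 10.09 to 11.57 (median 10.77).

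The proton pump has a membrane-embedded V0 sector and a cytosolic V1 sector that hydrolyses ATP, and genes of both rose. The V1 genes Atp6v1a and Atp6v1h did not pass with the change of fibroblast markers as a covariate. Atp6v0d1, a V0 subunit, rose by 0.97 (SE 0.098, adjusted p = 1.22e-07, 14 of 14). Atp6ap1, an accessory subunit, rose by 0.93 (SE 0.082, adjusted p = 2.31e-08, 14 of 14), from 9.49 to 10.10 (median 9.72) to 9.96 to 11.20 (median 10.73). Atp6v1a, the catalytic V1 subunit, rose by 0.76 (SE 0.10, adjusted p = 2.97e-06, 13 of 14). Atp6v1h, a regulatory V1 subunit, rose by 0.52 (SE 0.075, adjusted p = 9.67e-06, 13 of 14), from 8.40 to 9.54 (median 8.88) to 8.49 to 10.08 (median 9.42).

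The 2 regulators differed in their measured change, and neither passed with the change of fibroblast markers as a covariate. Tfe3 rose by 0.65 (SE 0.079, adjusted p = 9.67e-07, 14 of 14), from 6.99 to 7.75 (median 7.30) to 7.38 to 8.69 (median 8.07). Tfeb did not pass the test, with a change of -0.06 (SE 0.075, adjusted p = 0.614, higher in 5 of 14, 95% interval -0.22 to 0.09) and levels of 6.24 to 6.81 (median 6.60) before and 5.95 to 6.82 (median 6.54) after ADR. RNA levels do not report where either protein sits in the cell. The 10 genes with an E-box match had WT changes of 0.38 to 1.80 (median 1.03), and the 15 measured genes whose promoters held none had changes of -0.06 to 1.15 (median 0.65), ranges that overlap and were not tested.

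**Figure D3:**
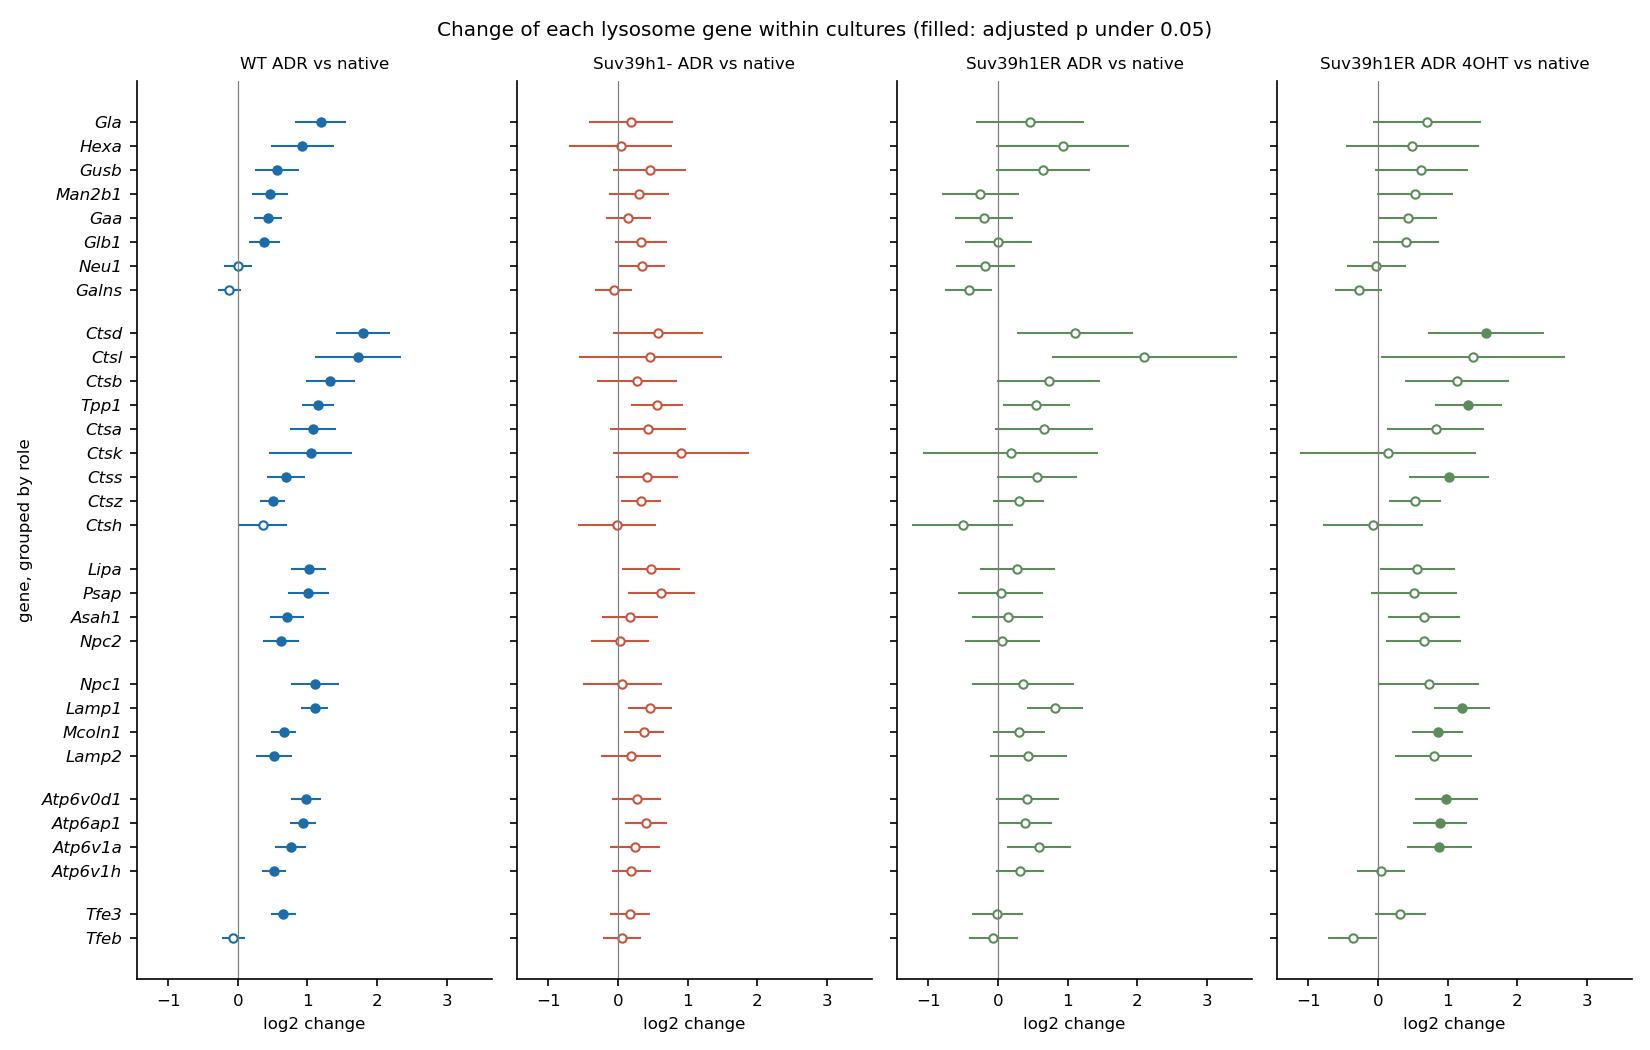
Log2 change of each of the 31 lysosome genes within cultures, grouped by role, with 95% intervals. Filled symbols passed an adjusted p of 0.05: 27 genes for WT ADR, 0 for Suv39h1- ADR, 0 for Suv39h1ER ADR and 8 for Suv39h1ER ADR 4OHT, each against native.

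The size of the rise differed between WT cultures, beside different changes of the markers of other cells. The median change of the 31 genes ran from 0.13 in lymphoma 2949, with 21 of 31 genes higher, to 1.5 in 3769, with 31 of 31. Lymphoma 2581 also had all 31 higher, with a median of 1.13. Of all genes 53.2%, 48.2% and 52.7% were higher in 2949, 3769 and 2581. In lymphoma 1467 the fibroblast markers had a mean change of -0.04 and the macrophage markers 1.81. There 23 of 31 lysosome genes were higher, where 51.6% of all genes were, with a median of 0.29. Ctsd changed by 1.37, Tpp1 by 1.12 and Lamp1 by 0.83 in that culture, while Npc1, Ctsk, Gla and Lamp2 lay at -0.07, -0.36, -0.22 and -0.16. In lymphoma 403 the fibroblast markers changed by 4.50 and the macrophage markers by 0.41, beside a lysosome median of 1.02. With the change of the fibroblast list as a covariate over the 14 cultures, 10 of the 31 genes passed the test and 0 fell, where 5.84% of all genes were higher. They were Tpp1 (0.85), Lamp1 (0.74), Ctsz (0.62), Atp6ap1 (0.54), Ctsd (1.24), Atp6v0d1 (0.62), Ctsa (0.80), Gusb (0.92), Mcoln1 (0.43) and Ctsb (0.96). Glb1 was at 0.12 (adjusted p = 0.8), Ctsl at 0.53 (adjusted p = 0.529) and Tfe3 at 0.38 (adjusted p = 0.0583) in that limma fit. SEs were larger there than in the main fit, so a gene that did not pass had not always lost its rise. Mcoln1 passed at 0.43 (SE 0.12), while Man2b1 at 0.50 (SE 0.25) and Atp6v1a at 0.48 (SE 0.18) did not. None of the 4 lipid genes passed there: Lipa was at 0.71 (adjusted p = 0.0541), Psap at 0.56 (adjusted p = 0.149), Asah1 at 0.08 (adjusted p = 0.82) and Npc2 at -0.01 (adjusted p = 0.985). The part of the macrophage markers in the result was not tested.

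**Figure D4:**
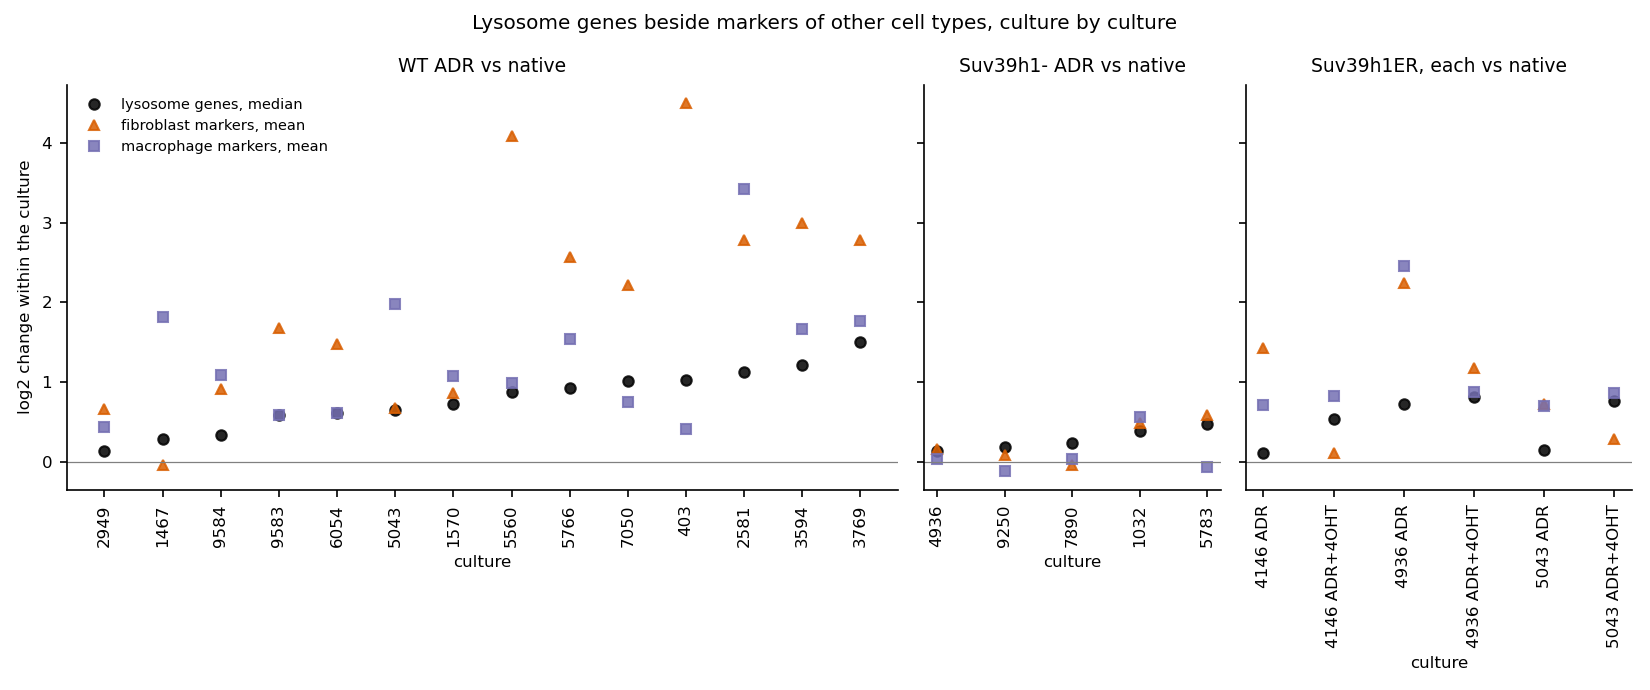
For each culture, the median log2 change of the 31 lysosome genes (circles) beside the mean change of 20 fibroblast markers (triangles) and 13 macrophage markers (squares). In WT culture 1467 the lysosome median was 0.29 with a fibroblast change of -0.04, and in 403 it was 1.02 with a fibroblast change of 4.50.

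In Suv39h1- lymphomas, labelled non-senescent also under ADR, 0 of 31 genes passed the test in limma, where 0.011% of all genes did. The count at an unadjusted p under 0.05 was 8 of 31, where 10.4% of all genes were under it. The values still leaned upward: 29 of 31 changes were above 0 with a median of 0.30, against -0.04 over all genes, and 13 genes were higher in each of the 5 cultures, where 3.42% of all genes were. Tpp1 had the smallest p, with levels of 9.31, 9.46, 9.06, 9.51 and 8.96 native and 10.14, 9.95, 9.74, 10.22 and 9.07 under ADR in lymphomas 5783, 7890, 9250, 1032 and 4936. All 5 lymphomas had the higher value under ADR, with a change of 0.56 (SE 0.174, adjusted p = 0.229). Lamp1 had native levels of 10.24, 10.71, 9.74, 10.15 and 10.28 and ADR levels of 10.81, 10.94, 10.18, 10.82 and 10.66 in the same order, a change of 0.46 (SE 0.145, adjusted p = 0.238). Atp6ap1 had a change of 0.41 (SE 0.138, adjusted p = 0.272). The native and ADR levels of each of these 3 genes overlapped between lymphomas.

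Glb1 in the Suv39h1- lymphomas stood at 7.92, 7.98, 8.17, 8.03 and 8.35 native and at 8.23, 8.52, 8.78, 8.43 and 8.16 under ADR. It was higher in 4 of the 5, with 4936 lower, and the change of 0.33 (SE 0.173, adjusted p = 0.514) lay close to the WT value of 0.38. Ctsd stood at 9.49, 10.47, 8.37, 10.21 and 8.29 native and 10.38, 10.70, 8.72, 11.30 and 8.60 under ADR, differences of 0.23 to 1.09 within a lymphoma beside a far wider spread between lymphomas. Ctsl had native levels of 10.31, 11.47, 9.27, 8.79 and 9.72 and ADR levels of 10.95, 11.76, 8.84, 10.48 and 9.85. Ctsk had the largest mean change, 0.91, which came mainly from lymphoma 5783 at 3.73, with the other four between -0.27 and 1.20. Lamp2 stood at 9.85 to 10.94 native and 9.88 to 11.09 under ADR, Atp6v1h at 7.84 to 9.35 and 8.35 to 9.69, Tfe3 at 6.34 to 7.82 and 6.69 to 7.72, and Tfeb at 6.09 to 6.65 and 6 to 6.65. In lymphomas 5783, 7890, 9250, 1032 and 4936, fibroblast markers changed by a mean of 0.58, -0.04, 0.08, 0.48 and 0.16. Macrophage markers changed by -0.07, 0.03, -0.12, 0.56 and 0.04 in the same order. Of the 31 lysosome genes 27, 29, 22, 25 and 22 were higher, with medians of 0.47, 0.24, 0.18, 0.39 and 0.13. The share of all genes that were higher was 49.3%, 48.8%, 46.4%, 34.2% and 52.9%. The part of these markers was not tested.

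The difference between both ADR responses, WT minus Suv39h1-, was tested directly. In limma 0 of 31 genes passed, where 0.341% of all genes did, and 17 had an unadjusted p under 0.05 (18.8% of all genes). The median difference was 0.48, against 0.05 over all genes, with 28 of 31 above 0. The smallest p-values belonged to Lamp1 (0.64, SE 0.169, adjusted p = 0.0722), Atp6v0d1 (0.70, SE 0.192, adjusted p = 0.0818) and Ctsd (1.22, SE 0.357, adjusted p = 0.0947). For Glb1 the difference was 0.05 (SE 0.201, adjusted p = 0.927, 95% interval -0.37 to 0.46). No single lysosome gene thus passed the test of a difference in response, and the fibroblast markers differed in the same direction (median difference 1.82 over 20 markers), as did the macrophage markers (median difference 1.10, 12 of 13 above 0, Ms4a7 passing at 2.64). The part of these markers was not tested. Leaving out each of the 19 lymphomas in turn gave 4 genes without WT lymphoma 2949 and 0 in every other fit. The share of all genes is not given for that fit.

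The Suv39h1ER cultures asked what 4OHT adds to ADR when Suv39h1 is otherwise deficient. Between ADR 4OHT and ADR, 0 of 31 genes passed the test in limma, where 0.143% of all genes did, and 9 had an unadjusted p under 0.05 (12.5% of all genes). The median difference was 0.37, against -0.02 over all genes, with 25 of 31 above 0, and the ADR 4OHT arrays lay wholly above the ADR arrays for 11 genes (8.55% of all genes) and wholly below for Atp6v1h (11.7% of all genes). Glb1 was one of the 11. Its levels in cultures SuvER-4146, SuvER-4936 and SuvER-5043 were 8.14, 8.33 and 8.33 native, 8.26, 8.36 and 8.20 under ADR, and 8.79, 8.59 and 8.63 under ADR with 4OHT. Native and ADR levels overlapped, and the ADR 4OHT arrays were the highest 3, a difference of 0.40 from ADR (SE 0.223, adjusted p = 0.497).

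The genes with the smallest p in that comparison were Tpp1, Gaa and Mcoln1. Tpp1 had levels of 9.35, 9.85 and 9.51 under ADR and 10.11, 10.22 and 10.61 with 4OHT, a difference of 0.75 (SE 0.225, adjusted p = 0.159). Gaa had levels of 8.09, 8.34 and 8.19 and then 8.70, 8.74 and 9.06, a difference of 0.63 (SE 0.193, adjusted p = 0.164). Mcoln1 had 7.15, 7.71 and 7.06 and then 7.91, 7.84 and 7.83, a difference of 0.55 (SE 0.173, adjusted p = 0.168). None of these passed after adjustment, although the 3 arrays of each group did not overlap. The culture mattered: 24 of 31 genes were higher with 4OHT in SuvER-4146 (median 0.53), 27 in SuvER-5043 (median 0.61) and 14 in SuvER-4936 (median -0.04). Of all genes 44.5%, 49.7% and 47.9% were higher in these cultures, in the same order. In SuvER-4936 Ctsl differed by -2.30 and Hexa by -2.09. Fibroblast markers differed by -1.32, -0.43 and -1.06 in SuvER-4146, SuvER-5043 and SuvER-4936, and macrophage markers by 0.12, 0.15 and -1.57. In SuvER-4146 and SuvER-5043 the lysosome median was above 0 and the fibroblast markers were lower, and the part of these markers in the differences was not tested. Tfeb and Atp6v1h were lower in all 3 cultures, at 6.02, 6.39 and 6.07 with 4OHT against 6.52, 6.5 and 6.35 for Tfeb, and at 8.59, 8.80 and 8.81 against 8.99, 9.05 and 8.96 for Atp6v1h.

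**Figure D5:**
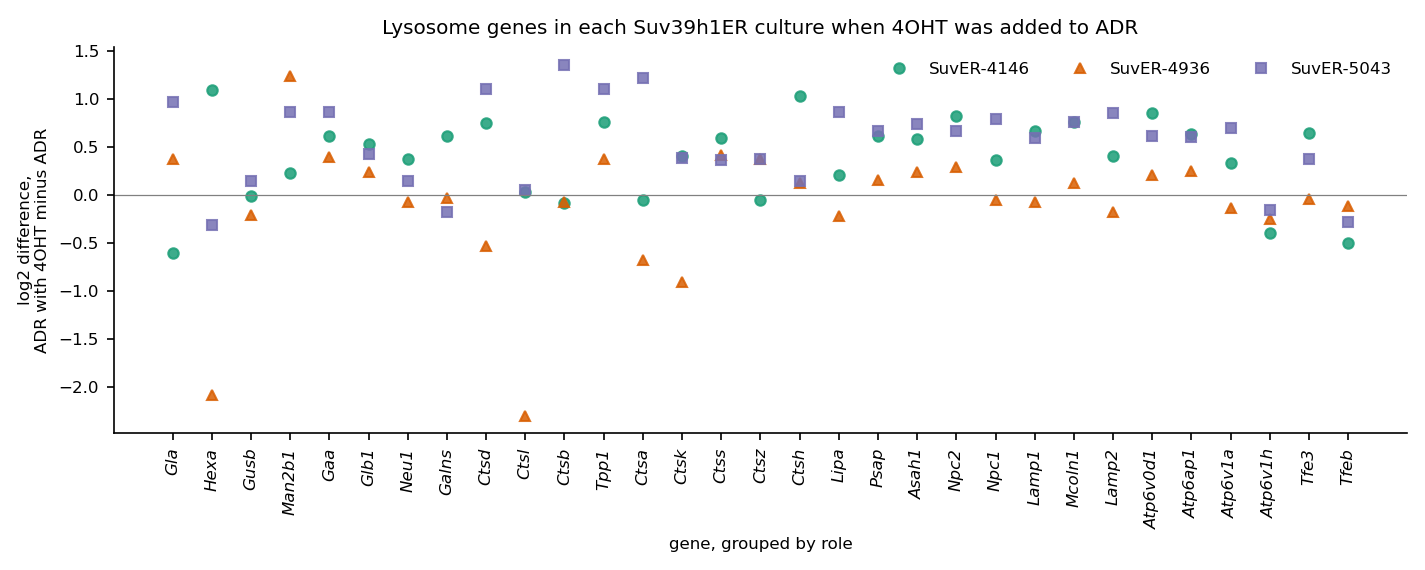
Difference in log2 level between ADR with 4OHT and ADR alone for each lysosome gene in the 3 Suv39h1ER cultures. Most points of SuvER-4146 and SuvER-5043 lie above 0 (24 and 27 of 31), and those of SuvER-4936 fall on both sides (14 of 31 above 0), with Ctsl at -2.30 and Hexa at -2.09. Of all genes 44.5%, 49.7% and 47.9% were above 0 in SuvER-4146, SuvER-5043 and SuvER-4936.

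Against the native arrays, ADR and ADR 4OHT share the same 3 controls, so their values are given side by side. Under ADR alone 0 of 31 genes passed in limma, where 0.126% of all genes did, and 8 had an unadjusted p under 0.05 (12.3% of all genes). The median change was 0.32. Under ADR with 4OHT 8 of 31 rose and 0 fell, where 2.95% of all genes passed, 1.38% higher and 1.57% lower. There 19 had an unadjusted p under 0.05 (16.3% of all genes) and the median change was 0.65. The groups did not overlap for 20 genes that were higher with ADR and 4OHT (10.6% of all genes) and for 11 that were higher with ADR (9.68%). Galns was the 1 gene whose levels lay wholly below native, in both comparisons (9.23% of all genes under ADR and 11.9% under ADR with 4OHT).

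Lamp1 had native levels of 10.01, 9.70 and 9.88, ADR levels of 10.41, 11.07 and 10.54, and ADR 4OHT levels of 11.08, 11 and 11.13. Its change was 0.81 under ADR (SE 0.187, adjusted p = 0.0785), the smallest p of that comparison, and 1.21 with 4OHT (SE 0.187, adjusted p = 0.00171). Both treated groups lay above native, and the ADR 4OHT arrays were close together. Tpp1, with native levels of 9.30, 8.31 and 9.44, changed by 0.55 and 1.30 (SE 0.225, adjusted p = 0.312 and 0.00368). Ctsd had native levels of 9.05, 8.29 and 8.65, ADR levels of 9.25, 10.64 and 9.42, and ADR 4OHT levels of 10.00, 10.11 and 10.53. Its changes were 1.11 and 1.55 (SE 0.396, adjusted p = 0.237 and 0.0338). Ctsl differed little between both treatments except in SuvER-4936, where it was lower with 4OHT: native levels were 8.08, 9.01 and 8.81, ADR levels 10.43, 12.36 and 9.41, and ADR 4OHT levels 10.46, 10.06 and 9.46. Its change of 2.10 under ADR (SE 0.635, adjusted p = 0.155) was carried furthest by SuvER-4936, where fibroblast markers changed by 2.24 and macrophage markers by 2.45.

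The remaining genes that rose with ADR and 4OHT were Mcoln1 (0.85, SE 0.173, adjusted p = 0.00953), Ctss (1.02, SE 0.270, adjusted p = 0.0421) and 3 of the 4 pump genes. The pump genes were Atp6ap1 (0.89, SE 0.178, adjusted p = 0.00912), Atp6v0d1 (0.98, SE 0.213, adjusted p = 0.0144) and Atp6v1a (0.88, SE 0.217, adjusted p = 0.0284). A further Atp6v1a probe set, nearly as bright (mean level 9.37 against 9.45), changed by only 0.31. Atp6v0d1 had levels of 9.92, 9.99 and 9.95 under ADR 4OHT, against 9.07, 9.77 and 9.34 under ADR and 9.05, 8.89 and 8.98 native. The spread under ADR 4OHT differed between genes, with an SD of 0.03 for Atp6v0d1, 0.22 for Atp6v1a and 1.39 for Hexa. Atp6v1h, the fourth pump gene, had 8.67, 8.63 and 8.77 native and a change of 0.04. Glb1 changed by 0.01 under ADR (SE 0.223, adjusted p = 0.994) and by 0.41 under ADR 4OHT (SE 0.223, adjusted p = 0.389). Lamp2 had 10.09, 10.02 and 9.73 native, 10.22, 11 and 9.92 under ADR and 10.63, 10.83 and 10.78 with 4OHT. Tfe3 had 7.10, 7.01 and 7.01, then 6.93, 7.37 and 6.79, then 7.57, 7.33 and 7.18. Fibroblast markers changed by 0.11, 1.17 and 0.29 under ADR 4OHT in SuvER-4146, SuvER-4936 and SuvER-5043 and macrophage markers by 0.83 to 0.88. The calls rest on 3 cultures and on the spread shared with the other groups: without the culture block 4 genes passed, with only these arrays in the fit 0, 2 without SuvER-4936 and 3 without SuvER-5043. The share of all genes is not given for these fits, so a loss of calls among other genes cannot be read from them.

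Between genotypes, the native levels of WT and Suv39h1- lymphomas were compared first. None of the 31 genes passed in limma, where 1.09% of all genes did, and 4 had an unadjusted p under 0.05 (9.54% of all genes). The smallest p-values were those of Neu1 (WT minus Suv39h1- 0.45, SE 0.124, adjusted p = 0.103), Galns (0.42, SE 0.148, adjusted p = 0.28) and Tfeb (0.26, SE 0.101, adjusted p = 0.346). Glb1 differed by 0.04 (SE 0.196, adjusted p = 0.976). Leaving out each of the 19 lymphomas in turn gave 1 gene without Suv39h1- lymphoma 1032 and 0 in every other fit. The share of all genes without lymphoma 1032 is not given.

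Under ADR, 8 of 31 genes were higher in WT and 0 in Suv39h1- lymphomas in limma, where 12.6% of all genes passed, 6.3% in each direction. The median difference was 0.56, against 0.04 over all genes, and 30 of 31 were above 0. Tfe3 had the smallest p, with 7.38 to 8.69 (median 8.07) in WT and 6.69 to 7.72 (median 7.07) in Suv39h1- ADR arrays, a difference of 0.83 (SE 0.178, adjusted p = 0.00672). The other seven were Ctsd (1.58, SE 0.434, adjusted p = 0.0236), Atp6v0d1 (0.77, SE 0.217, adjusted p = 0.026), Tpp1 (0.73, SE 0.207, adjusted p = 0.0275), Ctsb (1.61, SE 0.468, adjusted p = 0.0301), Galns (0.36, SE 0.105, adjusted p = 0.0309), Atp6ap1 (0.62, SE 0.194, adjusted p = 0.0413) and Lipa (0.70, SE 0.224, adjusted p = 0.0447). In native arrays the same differences were 0.35 for Tfe3, 0.35 for Ctsd, 0.07 for Atp6v0d1, 0.15 for Tpp1 and 0.55 for Ctsb. They were 0.42 for Galns, 0.09 for Atp6ap1 and 0.16 for Lipa, and none of the 8 genes passed there. For Galns the native difference was the larger, and the difference of its ADR responses was -0.06. The ranges of both genotypes under ADR overlapped for each of the 31 genes, where 1.06% of all genes were higher without overlap. Glb1 differed by 0.08 (SE 0.200, adjusted p = 0.813). Fibroblast markers were higher in the WT ADR arrays too (mean level 7.06 against 5.49), as were macrophage markers (6.94 against 5.74, with 12 of 13 above and Ms4a7 passing at 2.82), and their part in these differences was not tested. The count depends on single lymphomas: without Suv39h1- 4936, 9250 or 7890 it was 1, 2 or 3, with alike lymphomas counted once 5, with array weights 5 and with arrays centred on their median 3. The share of all genes is not given for these fits, so the counts do not tell whether other genes lost calls as well.

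A wider list of 95 other lysosome genes, 88 of them measured, was read in the same fits. In WT lymphomas 57 rose and 2 fell under ADR (16.1% and 14.1% of all genes), with a median change of 0.48. All 12 further pump genes rose, with a median of 0.78, among them Atp6v0b (0.91), Atp6v1e1 (0.84) and Atp6v0e (0.80), which had the smallest p-values. Of 28 further hydrolases and their activators 18 rose, among them Sumf1 (1.12), which activates the sulfatases, the cathepsin Ctso (0.85) and the iduronate sulfatase Ids (0.78). Of 23 further membrane proteins 12 rose, among them the chloride exchanger Clcn7 (1.22), Cln3 (0.94) and Laptm4a (0.75). Of 14 genes around TFEB control 9 rose, including the Rag GTPase Rragc (0.92), which holds mTORC1 at the lysosome, and the Ragulator subunits Lamtor3 (0.49) and Lamtor1 (0.46). Both cathepsin inhibitors rose, Cstb by 1.22 and Cst3 by 0.46. The sorting machinery was mixed: the mannose 6-phosphate receptors Igf2r (0.75) and M6pr (0.42) and the adaptor Gga1 (0.27) rose, while Gga2 (-0.32, SE 0.084, adjusted p = 0.00434) and Gnptab (-0.42, SE 0.118, adjusted p = 0.00741) fell. Gnptab makes the mannose 6-phosphate tag that these receptors read.

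In the other comparisons the wider list showed fewer calls. In Suv39h1- lymphomas 0 of 88 passed under ADR and 14 had an unadjusted p under 0.05 in limma (10.4% of all genes). In Suv39h1ER cultures 11 rose with ADR and 4OHT against native (1.38% of all genes), 7 of them among the 12 pump genes, and 0 passed with ADR alone, where 24 had an unadjusted p under 0.05 (12.3% of all genes). Between ADR 4OHT and ADR 0 passed and 14 had an unadjusted p under 0.05 (12.5% of all genes). Under ADR 21 were higher in WT than in Suv39h1- lymphomas (6.3% of all genes), 8 of them pump genes, and Gga2 was lower (-0.74, SE 0.187, adjusted p = 0.0159). In native arrays 1 of 88 was higher in WT (Abca2, 0.78) and 1 lower (Abcb9, -0.36), where 1.09% of all genes passed. No gene of the wider list passed for the difference of the responses, where 30 had an unadjusted p under 0.05 (18.8% of all genes).

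The 31 genes had 63 probe sets, 12 genes with a single one. In WT ADR against native arrays 55 of the 63 had a change above 0 and 6 below 0 when rounded to 2 decimals, with the other two at 0. The 6 were the brightest probe sets of Galns (-0.12) and Tfeb (-0.06) and dimmer ones of Galns (-0.05), Neu1 (-0.02), Npc2 (-0.08) and Atp6v1h (-0.09). The dimmer probe sets of Galns, Npc2 and Atp6v1h had mean levels of 2.76, 3.58 and 3.93, and that of Neu1 4.79. In Suv39h1ER cultures, ADR 4OHT against native, Atp6v1a changed by 0.88 on the probe set used and 0.31 on the other. Tpp1 changed by 1.30 on both of its probe sets, and Mcoln1 by 0.85 on the one used and 0.65 and 0.87 on the others. Between ADR 4OHT and ADR, Atp6v1a differed by 0.30 and -0.14, and Lamp2 by 0.36 on the probe set used and 0.41, -0.06 and -0.22 on the others.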

How the data were processed

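The authors deposited log2 levels for each probe set. Per the submitters' processing notes they used RMA, the oligo package and R 3.5.0. The sources used here do not say whether arrays were processed together or adjusted for batches. RMA is relative to each array, so a level says nothing of RNA per cell. Of 45101 probe sets, 34958 carried 1 gene symbol, 932 several and 9211 were unnamed here. The brightest probe set over 47 arrays stood for a gene (18194 genes), with no filter on dim genes.

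Differences were tested with limma 3.58.1 (lmFit, eBayes) in R 4.3.3 (data.table package, version 1.17.8), two-sided, with Benjamini-Hochberg adjustment over all genes and a threshold of 0.05. Within-culture comparisons used all 47 arrays with 22 cultures as fixed blocks. The series design text gives the matched pairs. The correlation of deviations from the group means exceeded 0.1 in 10 of 14 WT and 5 of 5 Suv39h1- pairs, and in 1, 0 and 1 of 3 Suv39h1ER pairs (native with ADR, native with ADR 4OHT, ADR with ADR 4OHT). Genotypes were compared over 19 arrays each, without a block. The number of arrays limits the precision. The fit was run on simulated data with a smaller spread than the arrays and no differences between cultures. That run checks the code and cannot check the culture block or the power in these data.

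Members, lists, markers and motifs were chosen with earlier results of these data known. By rule, every member is named for WT ADR, called members plus Glb1 and the 3 smallest p-values elsewhere, and levels are given for Glb1, Lamp1, Lamp2, Ctsd, Ctsl, Ctsk, Atp6v1h, Tfeb, Tfe3 and the members with the smallest and largest p of each role. From the wider list the 3 smallest p-values per role and every gene that fell in WT are named, and extremes or single calls elsewhere were named after their values were seen. Some markers on these lists are not reported here. Under ADR in WT, 2 of 7 neutrophil markers and 0 of 5 T cell markers rose, where 16.1% of all genes rose.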

Additional observations from a re-analysis of the deposited data

How the results depend on the processing

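For WT ADR against native, the count of 27 lysosome genes stayed between 25 and 28 under no replicate block (25), the culture as a random block (26), the mean of all probe sets, a filter on dim genes, median-centred arrays, quantile normalization, only WT arrays, array weights and alike lymphomas counted once, and was 27 to 28 without each lymphoma. It was 10 with the fibroblast change as a covariate, where Ctsh (-0.031), Lamp2 (-0.002), Neu1 (-0.155), Npc2 (-0.009) and Tfeb (0.064) changed sign. Neu1 was at -0.01 with median-centred arrays and at -0.036 to 0.067 without each lymphoma in turn. The count for Suv39h1- ADR was 0 under every alternative, and 0 to 0 without each lymphoma. That for the difference of responses was 0 to 4 without each lymphoma. For Suv39h1ER, ADR 4OHT against ADR gave 2 with array weights and 0 to 0 without each culture, and ADR against native 0 to 0. ADR 4OHT against native, 8 in the fit reported, gave 4 without the replicate block, 5 with a random block, 0 with only its own arrays and 2 to 7 without each culture. The block changed no other count by more than 1.5 times. Native genotypes gave 0 to 1 without each lymphoma. Genotypes under ADR (8) gave 3 with median-centred arrays, 5 with array weights, 5 with alike lymphomas counted once and 1 to 12 without each lymphoma. Median-centring moved the median difference of all genes there from 0.04 to -0.069. Glb1 changed sign for the difference of responses (-0.048 median-centred, -0.084 to 0.123 without each lymphoma, below 0 without WT 2581 or Suv39h1- 4936), Suv39h1ER ADR against native (-0.04 quantile, -0.052 to 0.075 without each culture), native genotypes (-0.039 to 0.102 without each lymphoma) and genotypes under ADR (-0.026 median-centred). Apart from the covariate fit, the share of all genes that passed is not given for these alternatives. The causes were not tested. Signal over background and scan batch were not assessed, as neither was used here.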
